A study of Mus musculus with 9 samples.

Results

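The glypicans Gpc1 to Gpc6 and the syndecans Sdc1 to Sdc4 are the 2 main families of cell-surface heparan sulfate proteoglycans. They were chosen by gene family, with earlier results of these data known. All 10 genes had a row in the deposited expression table, out of 43539 Ensembl gene identifiers kept, and 9 of the 10 were among the 18714 genes tested. The exception was Gpc5, whose mean FPKM over all libraries was 0.297, under the minimum of 0.5 set for the test.

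RNAseq was done on cranial tissue of mixed-strain mouse embryos at E14.5. The MCAGF8 cranial vault came from embryos carrying Msx2-Cre and the CAGF8 allele, in which Cre removes a stop cassette in the Gt(ROSA)26Sor locus and the strong CAG promoter then drives Fgf8b. Control embryos came from the same cross and gave both the cranial vault and the cranial base, of which the base was taken for its cartilage. The labels call them wildtype, whereas the study's methods say that all offspring of such crosses inherit the unrecombined allele and that Cre marks the mutants. Whether control vault and base pools share embryos is not stated, and the fit took all 9 libraries as independent. Each group had 3 libraries, and since 3 of the group's 9 tissue samples were pooled in each, every SD and p-value measures the spread between pools and not between embryos. Msx2-Cre acts in the surface ectoderm of the head, while the skin was peeled off before the vault was collected, so the tissue sequenced lay mostly beneath the cells that make the transgenic ligand. The transgene carries Fgf8 cDNA, so reads from it can count toward Fgf8, which was at 19.5, 9.43 and 13 FPKM in the MCAGF8 vault, 13.5, 8.25 and 3.01 FPKM in the control vault and 3.78, 17.4 and 5.82 FPKM in the control base. These ranges overlapped, so Fgf8 did not set the labelled groups apart.

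Glypicans are held to the outer face of the cell membrane by a glycolipid anchor, whereas syndecans cross the membrane and end in a short cytoplasmic tail. Both carry heparan sulfate, a sulfated sugar chain that binds FGFs together with their receptors, and also binds Hedgehog, Wnt and BMP ligands. In the skeleton, heparan sulfate proteoglycans are known to shape how far such ligands travel and which cells respond to them, and in humans loss of GPC3 causes an overgrowth syndrome with skeletal features.

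The feature that the syndecans share, and that glypicans lack, is encoded at the very end of the reading frame. The last 105 bases of the coding sequence, stop codon included, are given for the GENCODE M21 transcript of each syndecan, because this stretch holds the family's signature. Capitals mark the 12 bases before the stop codon, which encode the tail's final 4 residues, the docking site for proteins with PDZ domains.
Sdc1: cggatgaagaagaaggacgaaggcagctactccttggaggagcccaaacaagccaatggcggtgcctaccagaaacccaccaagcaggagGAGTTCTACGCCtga
Sdc2: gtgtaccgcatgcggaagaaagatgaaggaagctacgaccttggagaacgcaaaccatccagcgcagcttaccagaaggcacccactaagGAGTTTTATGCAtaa
Sdc3: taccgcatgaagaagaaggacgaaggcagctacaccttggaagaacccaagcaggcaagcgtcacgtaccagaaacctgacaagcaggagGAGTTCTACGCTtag
Sdc4: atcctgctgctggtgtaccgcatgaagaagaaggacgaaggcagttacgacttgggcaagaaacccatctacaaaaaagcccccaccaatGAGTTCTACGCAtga
Between 9 and 11 of these 12 bases were identical in each pair of syndecans. In alignments of the coding sequences, with gaps left out, Sdc1 and Sdc2 matched at 68.9% of aligned bases. Sdc3 and Sdc4 were the closest syndecan pair by this measure, at 73.7%. With gaps counted, these pairs matched at 43.9% and 33.1% of the alignment. Among glypicans, Gpc4 and Gpc6 were the closest pair, with 68.5% of aligned bases identical, or 65.4% of the alignment. Among syndecans, the longest run of bases shared by annotated transcripts of a pair was 29, between Sdc3 and Sdc4. Among glypicans it was 17, between Gpc4 and Gpc6. Reads were 151 bases long, and 0 windows of that length occurred in annotated transcripts of more than 1 member.

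Genes were placed by matching their Ensembl identifiers to GENCODE M21 on GRCm38, since the sources used here do not give the build used for mapping. Gpc3 (chrX:52272426-52613950) and Gpc4 (chrX:52053021-52165252) lie on the X chromosome on the same strand, 107173 bases apart with 0 protein-coding genes between them. Gpc5 (chr14:115092215-116525179) and Gpc6 (chr14:116925315-117976544) form the other such pair, 400135 bases apart, again with 0 protein-coding genes between. Sdc2 lies at chr15:32920723-33034935, Sdc1 at chr12:8771323-8793715, Sdc3 at chr4:130792537-130826319, Sdc4 at chr2:164424247-164443887, Gpc1 at chr1:92831645-92860779 and Gpc2 at chr5:138273655-138280005. Gpc2 values are uncertain, because 39.2% of its 151-base windows also lie in the annotated same-strand gene Gm43720. Gpc1 shares 16.2% of its windows with Ankmy1 on the opposite strand, which had at most 0.329 FPKM in any library.

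The 10 transcripts covered more than 4 orders of magnitude in FPKM, a unit that is scaled by transcript length and so allows levels to be compared between genes. Gpc3 was the most abundant in every library, at 658, 774 and 742 FPKM in the control vault, 650, 776 and 640 FPKM in the MCAGF8 vault and 541, 520 and 590 FPKM in the control base. Its mean level exceeded that of 98.9% of the genes tested. Gpc3 alone made up 49.3% ± 2.1 (SD, n = 3) of the summed FPKM of the 10 members in the control vault, 47.4% ± 0.78 in the MCAGF8 vault and 48.9% ± 3.4 in the control base. Sdc1 came next in all groups by its mean level, above 95.4% of genes tested, followed by Gpc1, Sdc3 and Sdc2 at 92.0%, 91.4% and 90.6%. Gpc2, Gpc6, Gpc4 and Sdc4 had lower levels, above 81.5%, 79.1%, 75.4% and 71.8% of genes.

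**Figure D1:**
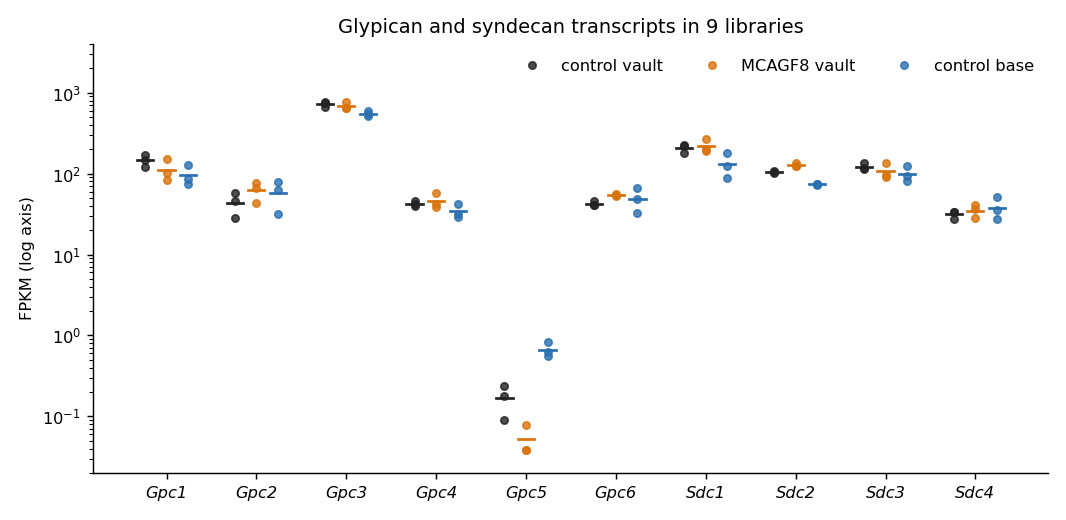
FPKM of the 10 genes on a log axis, with 1 point per library and a bar at the mean of 3 libraries, for the control vault (black), the MCAGF8 vault (orange) and the control base (blue). Gpc3 is highest in all 9 libraries (520 to 776 FPKM), and Gpc5 is lowest (0.0384 to 0.820 FPKM).

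The order of the levels differed in detail between groups. In the control vault, Gpc1 and Sdc3 overlapped with each other over their libraries, as did Gpc2, Gpc6 and Gpc4 in turn, whereas Gpc3 and Sdc1 stood clear of their neighbors, as did Sdc2, Sdc4 and Gpc5. In the MCAGF8 vault, Sdc2 had the highest mean of the group that also held Gpc1 and Sdc3, and these 3 overlapped. In the control base, all genes between Sdc1 and Gpc4 overlapped with their neighbors in the order, and only Gpc3 above them and Gpc5 below them stood clear. Summed FPKM of the 10 members was 1468 ± 80.1 (SD, n = 3) in the control vault, 1454 ± 183 in the MCAGF8 vault and 1130 ± 137 in the control base. Glypicans accounted for 68.2% ± 0.86, 66.3% ± 1.1 and 69.8% ± 1.8 of this sum, in the same order.

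Gpc5 was the counterpart of Gpc3, and the promoters of both are shown as reference for this contrast in level. The 250 bases before the annotated start are from RefSeq on GRCm38.p6, with CpG dinucleotides in capitals. An entry was found for 7 of the 10 members, and Gpc1, Gpc6 and Sdc2 had none.
Gpc3, chrX:52613975-52614224, minus strand: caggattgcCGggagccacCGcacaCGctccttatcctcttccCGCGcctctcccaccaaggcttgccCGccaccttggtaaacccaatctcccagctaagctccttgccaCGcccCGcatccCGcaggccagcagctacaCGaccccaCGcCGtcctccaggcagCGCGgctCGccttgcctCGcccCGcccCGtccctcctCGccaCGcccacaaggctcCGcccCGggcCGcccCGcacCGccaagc
Gpc5, chr14:115091965-115092214, plus strand: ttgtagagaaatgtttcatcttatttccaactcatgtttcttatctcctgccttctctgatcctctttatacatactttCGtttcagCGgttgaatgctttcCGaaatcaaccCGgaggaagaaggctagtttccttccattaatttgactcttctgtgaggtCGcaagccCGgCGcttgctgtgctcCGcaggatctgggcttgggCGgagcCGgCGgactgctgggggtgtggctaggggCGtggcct
The Gpc3 window held 25 CpGs and the Gpc5 window 12, where the median of 32851 mouse promoter windows of that length was 6. GC boxes, searched as GGGCGG on either strand, occurred 3 times in the Gpc3 window and once in the Gpc5 window, and 32.7% of all promoter windows held at least 1. Of the other members with an entry, Sdc3 held 32 CpGs, Gpc2 and Sdc4 19 each, Gpc4 18 and Sdc1, second in mean level, 10. A TATAAA match on either strand occurred in the Gpc5 window alone of the 7, and in 12.4% of all promoter windows. These are descriptions of the letters in the windows, and a link to level was not tested.

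The first comparison, MCAGF8 against control vault, asks whether core protein transcripts differed in tissue beneath the ectoderm that overexpresses Fgf8b. None of the 9 members tested was called, where a call required that limma's p be under 0.05 before and under 0.1 after Benjamini-Hochberg adjustment over all 18714 genes. Of all genes, 0.604% were called. With no adjustment, the count of members under 0.05 was also 0, against 6.34% of all genes, and a per-gene linear model without limma's moderation called 0 members and 0 genes in all. The median log2 difference of the 9 members was 0.11 and that of all genes -0.01.

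Of the 9 tested, Sdc2 and Gpc6 were the members whose libraries did not overlap between the vaults, both higher in MCAGF8, where 19.2% of all genes showed no overlap and 9.9% were higher without overlap. Sdc2, a syndecan known from mesenchymal and skeletal cells, was at 124, 134 and 124 FPKM in the MCAGF8 vault and at 103, 108 and 104 FPKM in the control vault. The lowest MCAGF8 library thus lay above the highest control vault library. Its log2 difference was 0.27 ± 0.14 (SE), with a 95% interval from -0.04 to 0.59 and an adjusted p of 0.893 by limma. The unadjusted p of Sdc2 was 0.0814 in this fit and depended on the setting. The model without moderation gave an unadjusted p of 0.000327 and an adjusted p of 0.194. Without control vault replicate 1, limma gave an unadjusted p of 0.178. Of 24 alternatives, 0 called Sdc2 between the vaults. Gpc6, which in humans is tied to limb shortening when lost, was at 52.2, 56.1 and 54.8 FPKM in the MCAGF8 vault and 45.8, 40.6 and 41.3 FPKM in the control vault. Its log2 difference was 0.35 ± 0.24 (SE), with a 95% interval from -0.18 to 0.88 and an adjusted p of 0.969.

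Gpc1, Gpc2, Gpc3 and Gpc4 overlapped between the vaults. Gpc1, found widely in developing tissues, was at 101, 150 and 83.5 FPKM with MCAGF8, compared with 149, 121 and 172 FPKM in control vaults. The log2 difference was -0.43, with an interval from -1.05 to 0.19. For Gpc3, which is known to restrain Hedgehog signaling, the difference was -0.08 and the interval ran from -0.54 to 0.39, and the sign turned under 3 other settings (0.21 after quantile normalization, 0.10 after rescaling to a common sum and 0.04 after a length and GC trend was removed). Gpc4 differed by 0.11, with an interval from -0.35 to 0.58. Gpc2, known from the developing nervous system, differed by 0.51 with the widest interval of the 9, from -0.33 to 1.36.

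Among the other syndecans, Sdc1, typical of epithelia and of condensing mesenchyme, differed by 0.07 (interval -0.53 to 0.67). Sdc3, known from neural tissue and limb cartilage, differed by -0.19 (-0.69 to 0.30). Sdc4, the focal adhesion syndecan, differed by 0.12 (-0.43 to 0.67). Each interval is for 1 gene and includes 0, so with 3 pools a group the limma fit could not tell these differences from 0. The intervals are not adjusted over all genes, so they do not give the size of difference that a call needs.

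**Figure D2:**
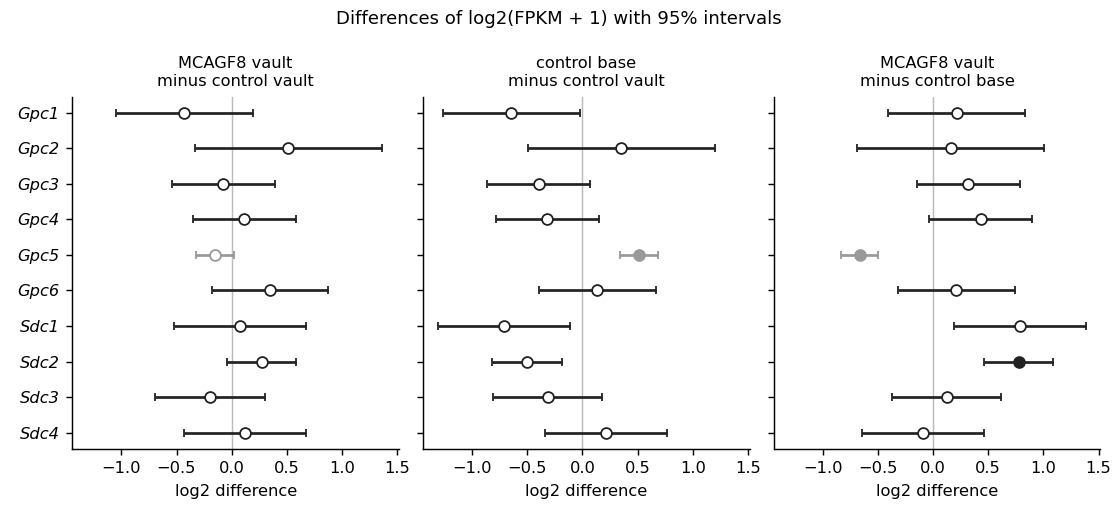
Differences of log2(FPKM + 1) between groups for each gene, with 95% intervals from limma, in 3 panels, 1 per comparison. Filled points were called, and grey marks Gpc5, which was fitted without the filter on low values. Among the 9 genes tested with the filter, the filled point is Sdc2 in MCAGF8 vault minus control base, at 0.78.

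The second comparison set the MCAGF8 vault against the control base, that is, against tissue collected as normal cartilage. It shares the MCAGF8 libraries with the first comparison and the base libraries with the third, so the 3 comparisons are not independent. Sdc2 was called, as 1 of 9 members, where 8.39% of all genes were called and 2.98% were called higher. Its values were 124, 134 and 124 FPKM in the MCAGF8 vault and 72.9, 75.1 and 73.5 FPKM in the control base. All MCAGF8 libraries were above all base libraries by a wide margin. The ratio of means was 1.72, and the log2 difference was 0.78 ± 0.14 (SE), with a 95% interval from 0.46 to 1.09 and an adjusted p of 0.015 by limma. The call held under all 24 alternatives, with adjusted p from 0.00293 to 0.0791. Counts out of 24, here and elsewhere, include a threshold of unadjusted p under 0.05, which a called gene cannot fail. They also include the fit without base replicates 1 and 3, which was chosen later.

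The spread of Sdc2 between libraries was small, with a coefficient of variation of 2.7% in the control vault and 1.5% in the control base, the lowest of the 10 members in both, and 4.6% in the MCAGF8 vault, where Gpc6 was lower at 3.6%. Within each library the ratio of Sdc2 to Gpc3 was 0.190, 0.173 and 0.193 in the MCAGF8 vault, 0.156, 0.140 and 0.141 in the control vault and 0.135, 0.144 and 0.125 in the control base. All MCAGF8 ratios to Gpc3 lay above the other 6, a comparison within libraries that multiplying a library by a factor cannot alter. This depended on the divisor. The ratio of Sdc2 to Sdc4 overlapped between the vaults, at 4.42, 3.3 and 3.43 in MCAGF8 and 3.73, 3.18 and 3.09 in the control. The ratio of Sdc1 to Sdc2 overlapped between all groups. As a share of the 10 members, Sdc2 made up 8.8% ± 0.67 (SD, n = 3) in the MCAGF8 vault, 7.16% ± 0.32 in the control vault and 6.6% ± 0.76 in the control base. Over all 9 libraries the genes with the pattern most like Sdc2 were Syk, Adgre5 and Stat6, whose centered log2 values differed from those of Sdc2 by a root mean square of 0.06, 0.06 and 0.08, where Sdc2 itself varied by 0.32.

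Sdc1 was not called in this comparison, although its libraries did not overlap. It was at 204, 269 and 188 FPKM in the MCAGF8 vault and 124, 89.3 and 181 FPKM in the control base. The base libraries ranged over a factor of more than 2, and the highest of them came close to the lowest MCAGF8 library. The log2 difference was 0.79 ± 0.27 (SE), with an interval from 0.19 to 1.38, an unadjusted p of 0.0154 and an adjusted p of 0.141 by limma. It passed under 7 of 24 alternatives, quantile normalization (adjusted p = 0.0124) and a rescaling to a common sum (adjusted p = 0.0223) among them, and the adjusted p over the alternatives ran from 0.0124 to 0.317.

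Gpc3 was the other member without overlap among the 9 tested, at a ratio of means of 1.25 and a log2 difference of 0.32 ± 0.21 (SE, adjusted p = 0.441 by limma). At an unadjusted p under 0.05, Sdc1 and Sdc2 passed, 2 of 9 members, where 19.6% of all genes did. In all, 3 of 9 members were higher in every MCAGF8 library than in every base library, where 8.91% of all genes were, and 21.9% showed no overlap in either direction. Gpc4 differed by 0.43 (interval -0.04 to 0.90), Gpc1 by 0.21, Gpc6 by 0.21, Gpc2 by 0.16 and Sdc3 by 0.12. Sdc4 differed by -0.09, and this sign turned when libraries were rescaled to a common sum (0.11) or median (0.01). The median over the 9 members was 0.21, with 8 above 0, beside a median of -0.07 over all genes.

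The third comparison, control base against control vault, describes how both control tissues differed as they were collected. The base libraries were uneven in the cell type markers given below. Again 0 of 9 members were called, where 3.06% of all genes were, and 3 passed an unadjusted p of 0.05, where 12.8% of all genes did. These were Sdc2 (log2 difference -0.50 ± 0.14 SE, interval -0.82 to -0.19, adjusted p = 0.127), Sdc1 (-0.71 ± 0.27 SE, adjusted p = 0.268) and Gpc1 (-0.64 ± 0.28 SE, adjusted p = 0.364). Sdc1, Sdc2 and Gpc3 had lower values in every base library than in every control vault library, where 6.69% of all genes did and 15.5% showed no overlap in either direction. For Sdc1 this rested on a near-tie, with 180.6 FPKM in base replicate 3 and 180.8 FPKM in control vault replicate 1. The model without moderation called Sdc2 (adjusted p = 0.0125), as did 7 of 24 alternatives in all, with adjusted p from 0.0125 to 0.368. The median of the 9 members was -0.32, with 6 below 0, beside 0.07 over all genes.

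**Figure D3:**
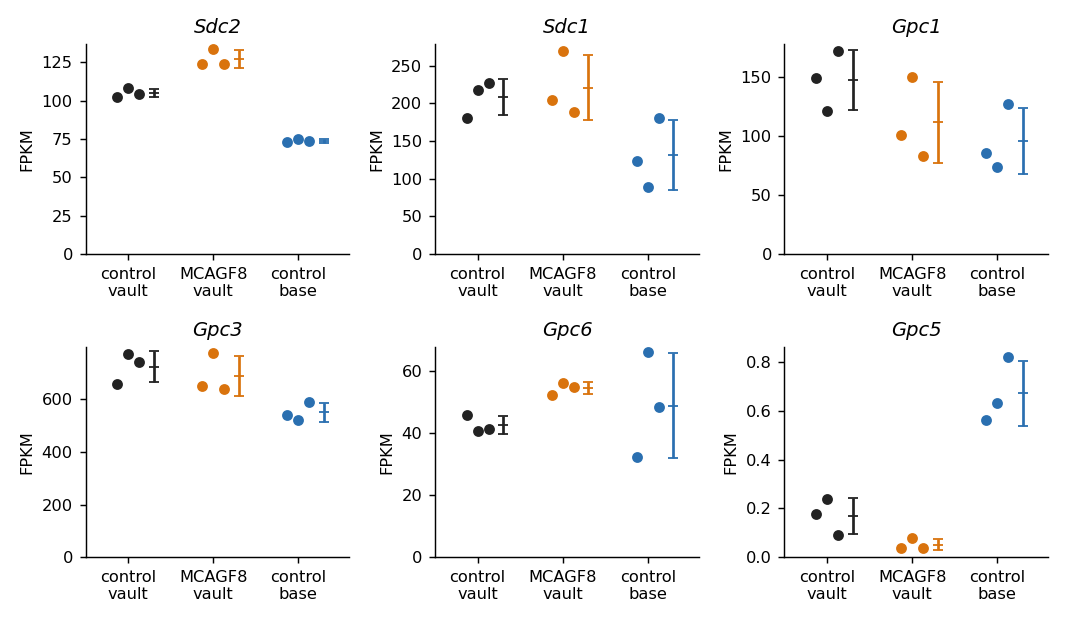
FPKM of 6 of the genes on linear axes from 0, with 1 point per library and the mean ± SD of 3 libraries beside the points. Sdc2 lies in 3 separate bands (124 to 134, 103 to 108 and 72.9 to 75.1 FPKM), whereas Gpc1 and Gpc6 spread widely in the base.

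Gpc5, the rarest glypican, had a pattern opposite to that of Sdc2. It was at 0.560, 0.631 and 0.820 FPKM in the control base, at 0.179, 0.239 and 0.0914 FPKM in the control vault and at 0.0387, 0.0783 and 0.0384 FPKM in the MCAGF8 vault. The 3 groups did not overlap, with the base highest and the MCAGF8 vault lowest. Mean levels in the base were 3.95 times those in the control vault, and mean levels in the MCAGF8 vault were 0.0773 times those in the base. All of this lies near the floor of the assay, as no library reached 1 FPKM. When all 27685 genes with any value were tested, Gpc5 was called in MCAGF8 vault minus control base (log2 difference -0.66 ± 0.07 SE, adjusted p = 0.00794, limma), where 5.14% of all genes were. It was also called in control base minus control vault (0.51 ± 0.07 SE, adjusted p = 0.0312), where 1.72% were, but not in MCAGF8 vault minus control vault (-0.15 ± 0.07 SE, adjusted p = 0.854), where 0.238% were. The addition of 1 to each FPKM compresses these differences, and with 0.1 added instead they were -2.34, 1.54 and -0.80. The call between base and control vault was lost without control vault replicate 1 (adjusted p = 0.117) or 3 (adjusted p = 0.129).

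Markers of other cell types moved with these groups. The control base was taken for its cartilage, but its libraries were uneven in chondrocyte transcripts. The sum of 10 chondrocyte genes, with Col2a1 (the main cartilage collagen), was 782, 7836 and 1025 FPKM in base replicates 1, 2 and 3. It was 1368 to 2008 FPKM in the control vault and 1802 to 3583 FPKM in the MCAGF8 vault. Replicates 1 and 3 thus fell below every vault library. The sum of 10 skeletal muscle genes was 11310, 1743 and 4727 in the base, 914 to 5792 in the control vault and 22.5 to 195 in the MCAGF8 vault. Neuronal genes (8 of 9 found) summed to 333 to 1239 in the base and at most 83.8 in any vault library, and glial genes to 163 to 373 against at most 143. The 10 osteoblast genes summed to 1379 to 3379 in the control vault, 144 to 293 in the MCAGF8 vault and 496 to 1400 in the base. None of the markers was at 0 in all libraries of a group.

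**Figure D4:**
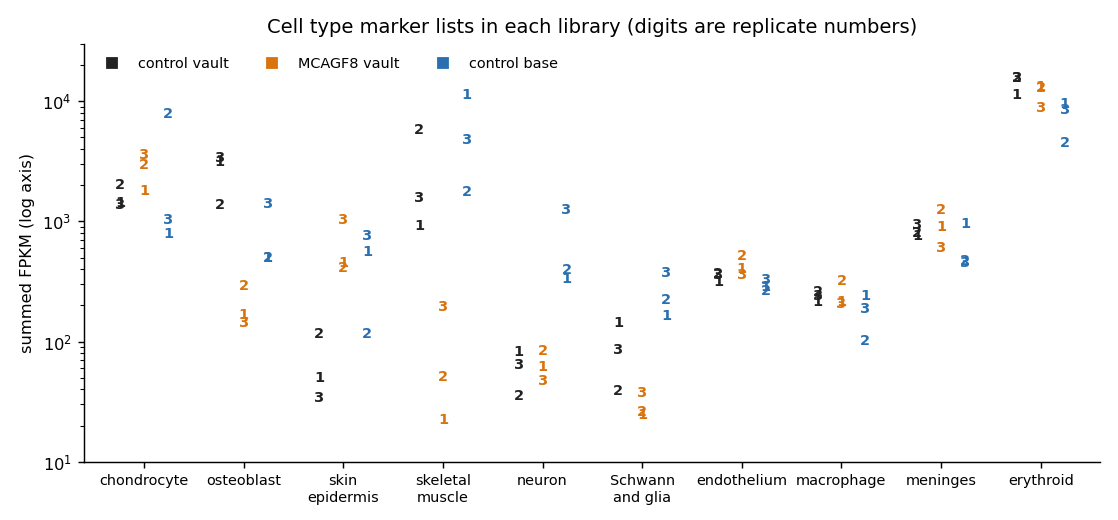
Summed FPKM of each cell type list on a log axis, with the digit giving the replicate number and the color the group. Base replicate 2 has the highest chondrocyte sum (7836), and base replicates 1 and 3 have the lowest (782 and 1025).

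Beside Sdc1, an epithelial syndecan, the sum of 10 epidermal keratin and junction genes was 412 to 1031 in the MCAGF8 vault, 34.2 to 116 in the control vault and 116 to 751 in the base. Sdc1 was at 89.3 FPKM in base replicate 2, the base library lowest in these genes, and at 124 and 181 FPKM in the other base libraries. The control vault libraries, lowest of all in epidermal genes, had Sdc1 at 181 to 226 FPKM. Beside Sdc2, the sum of 8 endothelial genes was 358 to 513 in the MCAGF8 vault, 315 to 364 in the control vault and 263 to 326 in the base, with a ratio of 1.46 between MCAGF8 vault and base and no overlap there. The sum of 8 macrophage genes was 207 to 317, 213 to 261 and 102 to 241 in the same order. The sum of 7 meningeal genes was 602 to 1249, 761 to 935 and 455 to 953, and that of 6 erythroid genes was 8786 to 13070, 11230 to 15620 and 4479 to 9424. The part of these cell types in the members' differences was not tested. In whole tissue, fewer cells of a type and less RNA per cell cannot be told apart.

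Base replicates 1 and 3 were therefore both left out in an alternative chosen after seeing the data. There the lone base library was taken to vary like the other groups. The base replicates in fact agreed less well (correlations of 0.904 to 0.946) than those of the vaults (0.959 to 0.980). Calls with both left out, here and below, rest on that assumption and are no check of the other calls. In MCAGF8 vault minus control base, the log2 difference was then 0.75 for Sdc2 and 1.28 for Sdc1. In control base minus control vault, it was -0.48 for Sdc2 and -1.21 for Sdc1.

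Gpc3 and Gpc4 are X-linked, and the pools differed in their mix of sexes. The sum of 4 Y-linked genes ran from 0.373 to 99.8 FPKM in the control vault, from 0.0769 to 42.2 FPKM in the MCAGF8 vault and from 2.43 to 23.3 FPKM in the base. Xist was at 42.5, 160 and 52.2 FPKM in the control vault, 227, 57.7 and 425 FPKM in the MCAGF8 vault and 148, 508 and 102 FPKM in the base, and overlapped between groups. The ratio of Gpc3 to Gpc4 within a library, which compares a pair of X-linked neighbors, was 16.8, 18.3 and 16.3 in the control vault, 15.5, 13.3 and 16.4 in the MCAGF8 vault and 17.2, 18 and 14.0 in the base. These ratios overlapped between all groups.

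Gpc2 was uneven within groups, at 57.3, 45.2 and 28.3 FPKM in the control vault, 76.1, 43.1 and 66.4 FPKM in the MCAGF8 vault and 31.5, 79.1 and 62.1 FPKM in the base. In each group the lowest value was in the library with the largest sum of FPKM over all genes, namely control vault replicate 3, MCAGF8 replicate 2 and base replicate 1. MCAGF8 replicate 2 held the highest value of its group for the other 9 members. Sums of FPKM ran from 793249 to 1315982 over the 9 libraries. Correlations between replicates, over log2 values of genes, were 0.959 to 0.980 in the vaults and 0.904 to 0.946 in the base.

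The other genes of the heparan sulfate system were taken from 6 lists of 75 genes in all, every one of which was tested. None was called between the vaults, 3 were called between base and control vault (1 higher, 2 lower) and 15 between MCAGF8 vault and base (7 higher, 8 lower). These are 0%, 4.0% and 20% of the lists, beside 0.604%, 3.06% and 8.39% of all genes. At an unadjusted p under 0.05, 11 (14.7%) were below the threshold between the vaults, beside 6.34% of all genes, and the model without moderation called 0. With base replicates 1 and 3 left out, 1, 8 and 8 were called (1.33%, 10.7% and 10.7%), in that order of comparisons, beside 0.935%, 4.61% and 5.26% of all genes. With base replicate 2 left out, 1, 6 and 26 were called (1.33%, 8.0% and 34.7%), beside 1.23%, 7.06% and 24.5% of all genes.

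Of 27 genes that build the chain, 3 were called between MCAGF8 vault and base. Hs3st1, which adds a rare sulfate at the 3-O position, was at 25.3 ± 2.9 (SD, n = 3) FPKM in the MCAGF8 vault and 12 ± 3.2 FPKM in the base (log2 difference 1.04 ± 0.22 SE, adjusted p = 0.0287, limma). Hs3st3b1, of the same enzyme family, was higher in MCAGF8 as well (0.82, adjusted p = 0.075), and it was lower in the base than in the control vault (-1.09, adjusted p = 0.0537). Its first call was kept under 8 of 24 alternatives. Ndst4, an N-deacetylase and N-sulfotransferase, was lower in MCAGF8 than in the base (-0.91, adjusted p = 0.0546) at levels near 1 FPKM or less. Between the vaults the smallest unadjusted p of this list belonged to Hs6st2 (-0.66, adjusted p = 0.505, limma).

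All 4 genes that edit chains outside the cell had higher means in the MCAGF8 vault than in the base, and 2 were called. Sulf2, which removes 6-O sulfates and so changes FGF and Wnt binding, was at 320, 417 and 267 FPKM in the MCAGF8 vault, 277, 222 and 314 FPKM in the control vault and 161, 179 and 203 FPKM in the base. Both vaults lay above the base for Sulf2 and overlapped with each other. Its log2 difference between MCAGF8 vault and base was 0.87 ± 0.23 (SE, adjusted p = 0.0621, limma), and 14 of 24 alternatives called it. Hpse2, a relative of heparanase that binds but does not cut the chain, differed by 1.54 (adjusted p = 0.0403). Hpse, heparanase itself, had the smallest p of the list between the vaults (-1.01, adjusted p = 0.47) and between base and control vault (-1.21, adjusted p = 0.127). Sulf1 is listed by the study as dysregulated in MCAGF8 skulls. It was at 121 ± 3.7 (SD, n = 3) FPKM in the MCAGF8 vault and 89.0 ± 14 FPKM in the control vault. Its log2 difference was 0.45 (adjusted p = 0.804, limma). Between the vaults, 3 genes of this list lay above 0 and 1 below.

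Among 11 genes for cleavage and release of core proteins, Pcsk5, a proprotein convertase, was at 35.4, 28.8 and 27.2 FPKM in the MCAGF8 vault, 32.9, 33.9 and 30.3 FPKM in the control vault and 8.18, 14.54 and 13 FPKM in the base. The vaults overlapped and stood clear of the base. The log2 difference was 1.31 ± 0.22 (SE, adjusted p = 0.0118, limma) between MCAGF8 vault and base and -1.40 ± 0.22 (SE, adjusted p = 0.0186) between base and control vault. Without base replicates 1 and 3 these were 1.01 (adjusted p = 0.0522) and -1.10 (adjusted p = 0.0466). Mmp14, a membrane metalloproteinase known to shed syndecan ectodomains, was at 294, 401 and 266 FPKM in the MCAGF8 vault and 138, 166 and 221 FPKM in the base (0.87, adjusted p = 0.0677). Pcsk6 had the smallest p between the vaults (-1.02, adjusted p = 0.61).

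None of the 7 partners of the syndecan tail was called in any comparison, and 0, 0 and 1 of them passed an unadjusted p of 0.05 between the vaults, between base and control vault and between MCAGF8 vault and base. Tiam1 had the smallest p between the vaults (0.23, adjusted p = 0.969). The 1 between MCAGF8 vault and base was Pdcd6ip, the adaptor known as ALIX, at 0.47 ± 0.19 (SE, adjusted p = 0.216, limma). Of the 10 other proteins that bear heparan sulfate, Tgfbr3, the TGF-beta co-receptor betaglycan, was at 23.9, 21 and 27.9 FPKM in the MCAGF8 vault, 18.4, 18.7 and 13.5 FPKM in the control vault and 9.48, 12.7 and 14.3 FPKM in the base. It was higher in MCAGF8 than in the base by 0.95 (adjusted p = 0.0395). Spock1, a testican found in neural tissue, was lower in the same comparison (-2.94, adjusted p = 0.0685), beside the neuronal sums given above. Nrp1, a co-receptor for VEGF and semaphorins, had the smallest p between the vaults (0.86, adjusted p = 0.364, limma), and Cd44, the hyaluronan receptor, that between base and control vault (-0.71, adjusted p = 0.223).

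The last list held 16 genes, for ligands that bind heparan sulfate and for receptors of such ligands. Of these, 6 were called lower in the MCAGF8 vault than in the base and 0 were called higher. In all, 9 differences lay below 0 and 7 above. Ihh, the Hedgehog ligand of maturing growth plate cartilage, was at 0.911, 1.44 and 1.58 FPKM in the MCAGF8 vault, 6.60, 3.78 and 7.23 FPKM in the control vault and 11.0, 23.0 and 8.75 FPKM in the base. Groups did not overlap, with MCAGF8 lowest. The log2 difference from the base was -2.62 ± 0.36 (SE, adjusted p = 0.00662, limma), and that from the control vault was -1.55 (adjusted p = 0.177). Shh, a related ligand, was lower in MCAGF8 than in the base (-1.83, adjusted p = 0.00658) and higher in the base than in the control vault (1.92, adjusted p = 0.0105), with 1.90 to 4.25 FPKM in the base and at most 0.258 in any vault library. Ptch1, the Hedgehog receptor and itself a target of the pathway, was at 13.4, 11.0 and 17.5 FPKM with MCAGF8 and at 30.4, 59.9 and 56.9 FPKM in the base (-1.70, adjusted p = 0.0113). Ihh, Shh and Ptch1 were also called with base replicates 1 and 3 left out, with adjusted p of 0.00954, 0.0229 and 0.0176. The calls of Hs3st1 (adjusted p = 0.0912), Ndst4 (0.0273) and Pcsk5 were kept there too. Those of Tgfbr3 (adjusted p = 0.16), Sulf2 (0.217), Hpse2 (0.272), Hs3st3b1 (0.307), Mmp14 (0.139) and Spock1 (0.138) were lost. Fgf9, Fgf7 and Ptprz1 completed the 6 ligands and receptors and are named after their values were seen, and of these Fgf7 lost its call (adjusted p = 0.235) and Fgf9 (0.0823) and Ptprz1 (0.0948) kept theirs. With single libraries left out, the calls between MCAGF8 vault and base were kept in 9 of 9 fits for Ihh, Shh, Ptch1 and Pcsk5, in 7 for Hs3st1, Tgfbr3 and Fgf9, in 6 for Hpse2 and Fgf7, in 5 for Sulf2, Ndst4 and Spock1, in 2 for Mmp14 and Ptprz1 and in 1 for Hs3st3b1. Between base and control vault they were kept in 9 of 9 for Pcsk5 and Shh and in 4 for Hs3st3b1, whose adjusted p without base replicates 1 and 3 was 0.131.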

How the data were processed

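Stranded mRNA libraries (TruSeq) of 9 RNA pools were sequenced by the authors as single-end reads of 151 bases, mapped with gSNAP and quantified with Cufflinks. The sources used here do not give versions, genome build, annotation or use of strand. Per Ensembl gene, the deposited table holds FPKM. Read counts are not analysed here, so depth is unknown and intervals for counting error are left out. The authors tested by ANOVA in R.

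Here, 63 repeated rows were summed and 9 genes with the placeholder 999999999 (17 cells) were left out. FPKM was not rescaled. The 18714 genes with a mean of at least 0.5 were fitted as log2(FPKM + 1) with limma 3.58.1 in R 4.3.3 (eBayes with trend, 1 mean per group, two-sided), tested on simulated data beforehand. Calls needed p under 0.05 and, after Benjamini-Hochberg adjustment over all genes, under 0.1. Fold changes on this scale understate changes of low genes, and ratios are of mean FPKM. Tables and plots used Python 3.11.15, pandas 2.3.3, numpy 2.4.6, biopython 1.88 and matplotlib 3.10.9.

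Named genes were all members, up to 3 called genes per list and comparison by size of difference (or, with none called, the gene with the smallest p), up to 3 top marker genes per list, and the 3 genes most like a called member. Fgf8 and Sulf1 were added after their values were seen. Members and lists were chosen with earlier results of these data known. Alternatives were other pseudocounts, filters, scalings, thresholds and models, removal of a length and GC trend, and each library left out. Leaving out base replicates 1 and 3, the Gpc5 settings and the list counts by setting were added after seeing the data.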

Additional observations from a re-analysis of the deposited data

How the results depend on the processing

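The 3 libraries a group, each a pool, and the unknown read depth limit these results. Between the vaults, 0 members were called under every alternative. Between base and control vault the count of 0 became 2 without the filter, 1 after quantile normalization, with a common median, without moderation, on FPKM without the log and without base replicates 1 and 3, 3 at an unadjusted p under 0.05 and 4 (Gpc1, Gpc3, Sdc1 and Sdc2) after the length and GC trend was removed, and it ranged from 0 to 1 with single libraries left out, Sdc2 being called without base replicate 2 (adjusted p = 0.0807). Between MCAGF8 vault and base the count of 1 became 2 without the filter, after quantile normalization, with a common sum or median, at an unadjusted p under 0.05 and without base replicates 1 and 3, and 4 (Gpc3, Gpc4, Sdc1 and Sdc2) after the trend was removed, and it ranged from 1 to 2 with single libraries left out, Sdc1 being added without base replicate 3 (adjusted p = 0.0619). The cause of these changes was not tested. Over all genes the calls numbered 113, 573 and 1571, against 0 to 192, 108 to 1594 and 529 to 2949 under other settings that kept the adjustment, 1186, 2396 and 3675 at an unadjusted p under 0.05, and 11 to 231, 132 to 1322 and 559 to 4580 with single libraries left out. The share called higher was 38.1%, 60.6% and 35.5%, and 42.7% to 43.9%, 37.7% to 56.1% and 48.3% to 58.7% under other scalings. Rescaling to a common sum moved the median of all genes from -0.01 to 0.13 between the vaults and from -0.07 to 0.11 between MCAGF8 vault and base.

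Signs turned only for members that were not called. Between the vaults these were Gpc3 (0.213, 0.097 and 0.039 after quantile normalization, a common sum and the trend removed), Gpc4 (-0.059 to 0.22 with single libraries left out) and Sdc1 (-0.08 to 0.18). Between base and control vault they were Gpc6 (-0.11 to 0.40) and Sdc4 (-0.024 to 0.42), both without base replicate 2. Between MCAGF8 vault and base, single libraries left out gave -0.021 to 0.44 for Gpc1, -0.22 to 0.43 for Gpc2, -0.053 to 0.45 for Gpc6, -0.055 to 0.30 for Sdc3 and -0.30 to 0.14 for Sdc4. Without base replicates 1 and 3, Gpc2 was at -0.39 and Gpc6 at -0.27. Sdc4 was at 0.11, 0.01 and 0.12 with a common sum, a common median and the trend removed.

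Whether replicate numbers pair the libraries could not be decided from the values. The deviations of the 3 libraries of a group sum to 0, and libraries with different numbers reached a correlation of 0.563. Same-numbered libraries had deviations from their group means that correlated at -0.549 to 0.37 over 9 pairs, above 0.1 in 2, and 3 of 18 checks found a library closest to its own number. With the replicate block, 0, 0 and 1 members were called, and 19, 234 and 918 genes in all.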
